A study of Mus musculus with 6 samples.

Results

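The delta protocadherins are single-gene members of the cadherin superfamily, and the 10 examined here were taken by gene name from both deposited tables: Pcdh1, Pcdh7, Pcdh9 and Pcdh11x of the delta1 subgroup, Pcdh8, Pcdh10, Pcdh17, Pcdh18 and Pcdh19 of the delta2 subgroup, and Pcdh20, which stands outside both. All 10 are present among the 23235 genes of each table, and all 10 carried the authors' status OK, meaning that they were tested, in both comparisons. RNA sequencing covered 6 libraries, 2 each of HDAC2 knockdown, Sp3 knockdown and control. The cells in all 3 groups were primary mouse cortical and hippocampal neurons from embryos of day 15, grown for 17 days, exposed to 1 uM AraC on day 5 to block dividing cells, and transduced on day 12. HDAC2 shRNAs or Sp3 shRNAs were delivered by lentivirus to the knockdown cultures. The labels name neither the strain nor what the control cultures received. Whether both libraries of a group stem from independent cultures is also not said, and the spread behind the p-values may therefore be technical. The series asks whether HDAC2, a histone deacetylase of corepressor complexes, and Sp3, a zinc finger factor of the Sp1 family that recognises GC boxes, act on a common set of genes.

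Delta protocadherins are membrane proteins whose extracellular cadherin repeats bind the same protein on a neighbouring cell, and whose cytoplasmic tails connect to actin regulators, phosphatases and endocytosis. Different combinations of them are expressed by different neurons, and they are known for roles in axon outgrowth, dendrite shape, and the formation and removal of synapses. The delta1 tails carry a motif that binds protein phosphatase 1, and several delta2 tails recruit the WAVE regulatory complex, which drives branched actin assembly.

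The deposited values are FPKM, fragment counts scaled to transcript length and library size, given as 1 value per group and not per library. No spread within a group can therefore be given. All FPKM, deposited log2 fold changes and q values below are those of the authors' deposited tables, made with Cuffdiff. Errors below, written as ±, are standard errors of a log2 fold change (knockdown over control) that the authors' test statistic implies, and a gene was called where the authors' q was under 0.05. Each target was lower in the libraries named for it: Hdac2 measured 12.3 FPKM in HDAC2 knockdown and 49.4 FPKM in control (q = 9.22e-14 in the authors' deposited table), and Sp3 measured 5.82 FPKM in Sp3 knockdown and 15.5 FPKM in control (q listed as 0 in the authors' deposited table). Sp3 was higher in HDAC2 knockdown, at 26.7 FPKM (0.78 ± 0.089 as deposited and 0.47 ± 0.089 centred, called on both scales). Hdac2 measured 38.8 FPKM in Sp3 knockdown and was called lower as deposited (-0.35 ± 0.11) but not after centring (-0.22 ± 0.11). The median gene of at least 1 FPKM was itself shifted, by a log2 value of 0.32 in HDAC2 knockdown and -0.13 in Sp3 knockdown. Fold changes are therefore given both as deposited and relative to that median gene (centred). Read counts per library are unknown, and scaling and a change in the cells cannot be told apart as sources of the shift.

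Pcdh8, which neuronal activity is known to induce, was the highest of the 10 in control, and Pcdh18 the lowest in all 3 groups. The members ranged over 2.37 to 133 FPKM in HDAC2 knockdown, 4.07 to 139 FPKM in Sp3 knockdown and 2.59 to 128 FPKM in control. FPKM is scaled to length, so levels of different members can be set side by side, but without values per library it cannot be said which neighbours in the order differ. Pcdh8 supplied 17.6% of the summed FPKM of the 10 members in HDAC2 knockdown, 24.3% in Sp3 knockdown and 30.6% in control. Pcdh10 supplied 23.0% in HDAC2 knockdown, 14.5% in Sp3 knockdown and 10.3% in control. Pcdh10 was thus the highest member in HDAC2 knockdown, the second highest in Sp3 knockdown and the fifth in control. The summed level of the 10 was 577 FPKM in HDAC2 knockdown, 570 FPKM in Sp3 knockdown and 418 FPKM in control. Over all genes the sum was 617318 FPKM in HDAC2 knockdown, 426433 FPKM in Sp3 knockdown and 479383 FPKM in control. The members' sum was thus higher than in control in both knockdowns, while the sum over all genes was higher only in HDAC2 knockdown. By position, 4 of the 10 lie on chromosome 14 and 2 each on chromosomes 3 and X. The deposited loci run from 4.54 kb for Pcdh8 to 875 kb for Pcdh9.

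**Figure D1:**
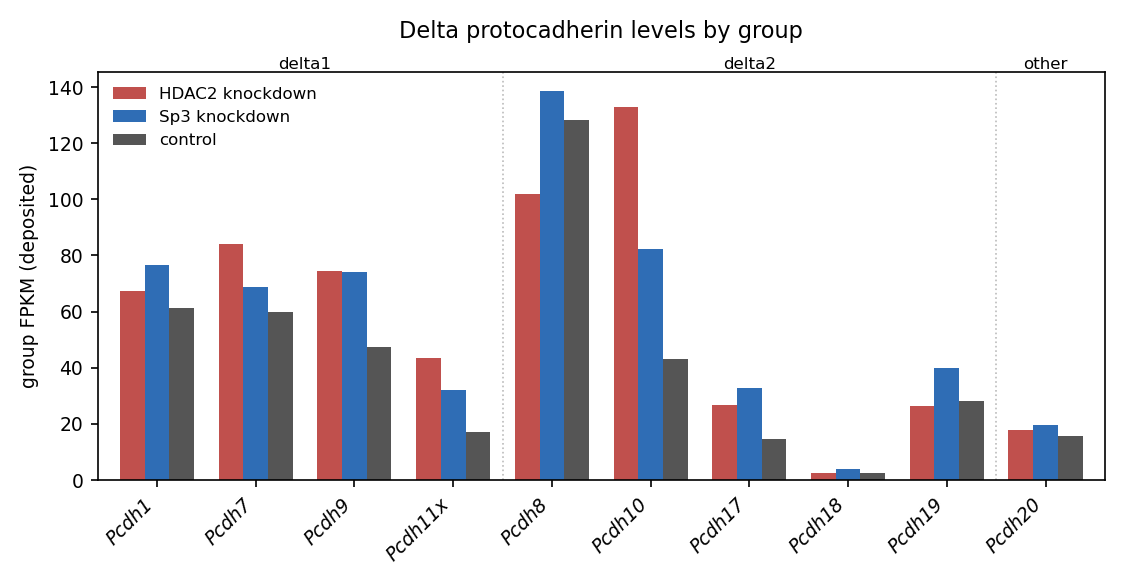
Deposited FPKM of each delta protocadherin (vertical axis, linear, 1 value per group) in HDAC2 knockdown, Sp3 knockdown and control, ordered by subgroup. Pcdh8 stands at 102, 139 and 128 FPKM and Pcdh10 at 133, 82.4 and 43.1 FPKM in the 3 groups in that order, and Pcdh18 is under 5 FPKM in each.

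In HDAC2 knockdown, Pcdh10 and Pcdh11x were higher and Pcdh8 lower than in control, and the other 7 members did not pass the authors' test. Pcdh10 measured 3.08 times its control level and Pcdh11x 2.51 times, while Pcdh8 stood at 0.794 times. These calls make 2 of 10 members higher, beside 24.6% of all 13569 tested genes, and 1 of 10 lower, beside 3.6% (28.2% in either direction). At an unadjusted p under 0.05, 3 members were higher and 1 lower, beside 4380 higher and 661 lower of the 13569 tested genes. Relative to the median gene, Pcdh10 and Pcdh11x were still the 2 higher members (background 10.2%), and Pcdh8 and Pcdh19 were the 2 lower ones (background 7.59%, and 17.8% in either direction). The centred median of the 10 members was 0.02, and that of all tested genes was -0.0044.

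Of the delta1 members, Pcdh11x, an X-linked gene that has a Y-linked copy in humans, measured 43.4 FPKM in HDAC2 knockdown and 17.3 FPKM in control. Its deposited log2 fold change was 1.33 ± 0.28 (q = 2.84e-05 in the authors' deposited table), and its centred value, tested with the error the authors' statistic implies, was 1.01 ± 0.28 (adjusted p = 0.00343). The rise of Pcdh11x was therefore called on both scales. Pcdh7, whose tail is known to bind protein phosphatase 1, measured 84.1 FPKM in HDAC2 knockdown and 59.7 FPKM in control, with a log2 fold change of 0.49 ± 0.46 (q = 0.43 in the authors' deposited table). Pcdh9, linked to recognition memory in mice, measured 74.5 FPKM in HDAC2 knockdown and 47.5 FPKM in control, 0.65 ± 0.40 (q = 0.213 in the authors' deposited table). Pcdh1, known from epithelial barriers and as a hantavirus receptor, measured 67.4 FPKM in HDAC2 knockdown and 61.4 FPKM in control, 0.13 ± 0.36 (q = 0.807 in the authors' deposited table). The deposited differences of Pcdh7, Pcdh9 and Pcdh1 were positive but within 2 standard errors, and the 95% interval of Pcdh9 ran from -0.14 to 1.44.

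Of the delta2 members, Pcdh10 acts with the transcription factors of the Mef2 family and with Fmr1 in activity-dependent synapse elimination, where it brings the postsynaptic scaffold encoded by Dlg4 to the proteasome. It measured 133 FPKM in HDAC2 knockdown and 43.1 FPKM in control. Its log2 fold change of 1.62 ± 0.12 was called with q listed as 0, and its centred value, with the error from the authors' statistic, was 1.31 ± 0.12 (adjusted p = 1.73e-24), above 96.7% of tested genes. Pcdh8, also known as arcadlin, drives the endocytosis of N-cadherin at active synapses. It measured 102 FPKM in HDAC2 knockdown and 128 FPKM in control, with a log2 fold change of -0.33 ± 0.059 (q = 3.49e-07 in the authors' deposited table) and, with the error from the authors' statistic, a centred value of -0.65 ± 0.059 (adjusted p = 2.91e-25). Pcdh8 was thus lower by a small amount with an unusually small error, and the call ended when the error from the authors' statistic was raised to the table's median (adjusted p = 0.387 as deposited and 0.0782 centred).

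Pcdh19, an X-linked gene whose mutations cause a clustered epilepsy of girls, measured 26.4 FPKM in HDAC2 knockdown and 28.3 FPKM in control. Its deposited value of -0.10 ± 0.070 was not called (q = 0.262 in the authors' deposited table), and its centred value of -0.42 ± 0.070, with the same error from the authors' statistic, was (adjusted p = 9.43e-08), so the call depends on the scale. It too ended when the error from the authors' statistic was raised to the table's median (adjusted p = 0.331, centred). Pcdh17, which limits presynaptic assembly and helps axons extend together, measured 26.7 FPKM in HDAC2 knockdown and 14.5 FPKM in control, 0.88 ± 0.37, and missed the threshold narrowly (q = 0.0517 in the authors' deposited table). Pcdh18, whose zebrafish counterpart binds a WAVE complex subunit, measured 2.37 FPKM in HDAC2 knockdown and 2.59 FPKM in control, -0.13 ± 0.28 (q = 0.759 in the authors' deposited table). Pcdh20, known from the positioning of cortical neurons in mice, measured 17.9 FPKM in HDAC2 knockdown and 15.8 FPKM in control, 0.18 ± 0.24 (q = 0.583 in the authors' deposited table). Within the delta2 subgroup, therefore, Pcdh10 had the highest centred value, and the subgroup's centred median was -0.42, against 0.25 for the 4 delta1 members.

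In Sp3 knockdown, 8 of the 10 delta protocadherins were higher than in control and 0 were lower. All 5 delta2 members rose, as did Pcdh20 and the delta1 members Pcdh9 and Pcdh11x. The largest ratios to control were those of Pcdh17, 2.26 times, Pcdh10, 1.91 times, and Pcdh11x, 1.87 times. Across all 13619 tested genes, 13.2% were called higher and 26.1% lower (39.3% in either direction). By the authors' Cuffdiff test 9 members had an unadjusted p under 0.05, all of them higher. Of the 13619 tested genes, 2151 were higher and 4327 lower at that threshold. On the centred scale 9 of 10 were higher (background 20.2%) and 0 lower (background 17.6%, and 37.8% in either direction). The centred median of the 10 members was 0.70, beside -0.0017 over all tested genes.

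Among the delta2 members, Pcdh17 measured 32.9 FPKM in Sp3 knockdown and 14.5 FPKM in control, a log2 fold change of 1.18 ± 0.13 (q listed as 0 in the authors' deposited table). Its centred value of 1.31 ± 0.13 exceeded 98.9% of tested genes. Pcdh10 measured 82.4 FPKM in Sp3 knockdown and 43.1 FPKM in control, 0.93 ± 0.048 as deposited and 1.07 ± 0.048 centred (q listed as 0 in the authors' deposited table). Pcdh17 and Pcdh10 were the 2 members with the largest centred changes in this comparison. Pcdh18 measured 4.07 FPKM in Sp3 knockdown and 2.59 FPKM in control, 0.65 ± 0.16 (q = 4.31e-04 in the authors' deposited table). Pcdh19 measured 40.0 FPKM in Sp3 knockdown and 28.3 FPKM in control, 0.50 ± 0.044 (q listed as 0 in the authors' deposited table). These members, too, were called on both scales. Pcdh8 measured 139 FPKM in Sp3 knockdown and 128 FPKM in control, the smallest called change, 0.11 ± 0.036 as deposited (q = 0.00923 in the authors' deposited table) and 0.25 ± 0.036 centred. As in the other comparison, this call ended when the error from the authors' statistic was raised (adjusted p = 0.57 as deposited and 0.176 centred).

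Among the delta1 members, Pcdh11x measured 32.3 FPKM in Sp3 knockdown and 17.3 FPKM in control, 0.90 ± 0.099 (q listed as 0 in the authors' deposited table), with a centred value of 1.03. Pcdh9 measured 74.0 FPKM in Sp3 knockdown and 47.5 FPKM in control, 0.64 ± 0.15 (q = 2.69e-04 in the authors' deposited table). Both rose in Sp3 knockdown on both scales. Pcdh1 measured 76.8 FPKM in Sp3 knockdown and 61.4 FPKM in control. It missed the authors' threshold (0.32 ± 0.14, q = 0.0734) and passed after centring (0.45 ± 0.14, adjusted p = 0.00643). Pcdh7 was called on neither scale, at 68.8 FPKM in Sp3 knockdown and 59.7 FPKM in control (0.20 ± 0.22, q = 0.501). Pcdh20 measured 19.8 FPKM in Sp3 knockdown and 15.8 FPKM in control, 0.33 ± 0.10 (q = 0.00641 in the authors' deposited table). With the error from the authors' statistic raised, Pcdh20 was no longer called as deposited (adjusted p = 0.0537) but was after centring (adjusted p = 0.0049).

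**Figure D2:**
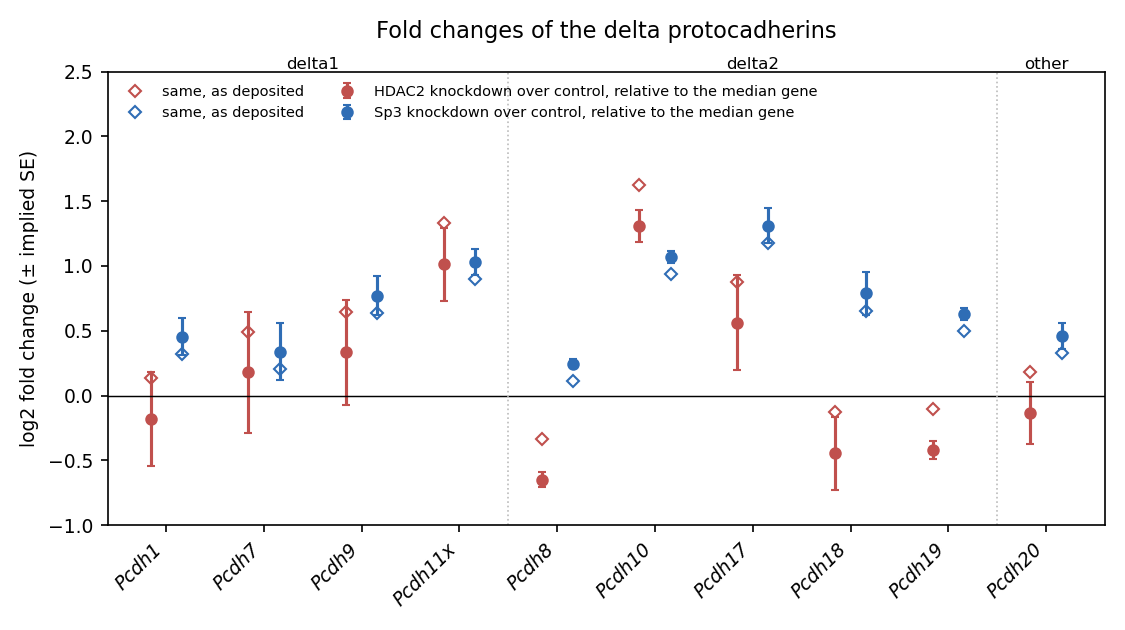
Log2 fold change over control (vertical axis) of each delta protocadherin in HDAC2 knockdown and Sp3 knockdown. Filled points are relative to the median gene with the implied standard error as bars, and open diamonds are the deposited values. All 10 filled Sp3 points lie above 0, between 0.25 and 1.31, while the filled HDAC2 points run from -0.65 to 1.31.

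Both comparisons use the same control libraries, so a member's high or low control level enters both fold changes. The difference between the knockdowns was therefore tested itself, as the difference of centred log2 fold changes (HDAC2 minus Sp3 knockdown). Pcdh8, Pcdh18 and Pcdh19, all delta2 members, were lower in HDAC2 knockdown than in Sp3 knockdown, and 0 members were higher, beside 6.87% lower and 7.86% higher (14.7% in either direction) among the 13277 genes tested in both tables. At an unadjusted p under 0.05 by this normal test, 4 members were lower and 0 higher. The share of all genes at that threshold is not given here, so this count has no background beside it. With errors from the authors' statistics, Pcdh19 differed by -1.05 ± 0.083 (adjusted p = 3.28e-33), Pcdh8 by -0.89 ± 0.070 (adjusted p = 2.44e-34) and Pcdh18 by -1.23 ± 0.33 (adjusted p = 0.00226). These 3 differences still passed when the errors from the authors' statistics were raised to the table medians, at adjusted p = 0.0069 for Pcdh19, 0.0292 for Pcdh8 and 0.00348 for Pcdh18.

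Pcdh11x and Pcdh10, the 2 members called higher in both knockdowns by the authors' test, differed by -0.02 ± 0.30 (adjusted p = 0.982) and 0.24 ± 0.13 (adjusted p = 0.239) on the centred scale. The share of all tested genes called higher in both knockdowns is not given here, so the count of 2 has no background beside it. On the scale the authors deposited, Pcdh10 was higher in HDAC2 knockdown than in Sp3 knockdown (0.69 ± 0.13, adjusted p = 3.05e-06), and Pcdh18 no longer passed (-0.78 ± 0.33, adjusted p = 0.0542), while Pcdh8 and Pcdh19 still did. With errors from the authors' statistics, the difference for Pcdh17 was -0.75 ± 0.39 (adjusted p = 0.213), and for Pcdh20 it was -0.59 ± 0.26 (adjusted p = 0.112). The median difference of the 10 members was -0.62, beside -0.012 over all genes tested. A p that missed the threshold does not show that the knockdowns acted alike on these genes.

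**Figure D3:**
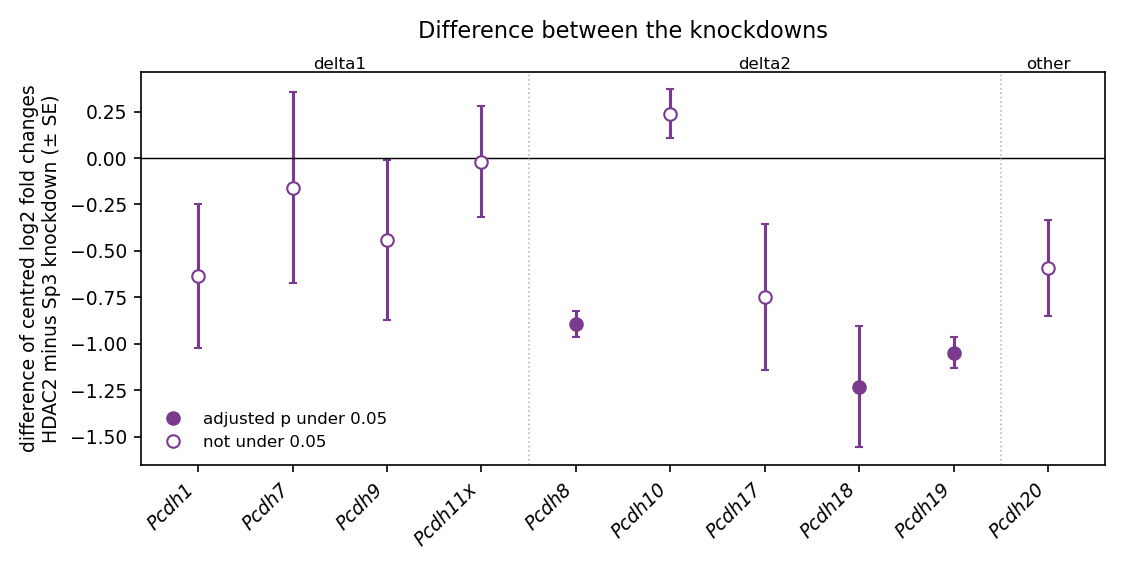
Difference of centred log2 fold changes, HDAC2 minus Sp3 knockdown, for each delta protocadherin (vertical axis, bars are standard errors). Filled points passed an adjusted p of 0.05, and they are Pcdh8, Pcdh18 and Pcdh19, at -0.89, -1.23 and -1.05.

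The precision behind these calls was uneven among the members. Implied standard errors ran from 0.059 for Pcdh8 to 0.46 for Pcdh7 in HDAC2 knockdown, and from 0.036 for Pcdh8 to 0.22 for Pcdh7 in Sp3 knockdown. Of 440 other genes within 1.5 times the control FPKM of Pcdh8, 0% had a smaller standard error in HDAC2 knockdown, and their median was 0.32. For Pcdh19 the share with a smaller standard error was 0.559% of 2326 genes, and for Pcdh10 5.93% of 1652 genes. Pcdh7 and Pcdh17 lay at the other end, with 93.0% and 98.4% of such genes below them. A change of given size was thus more readily called for Pcdh8, Pcdh10 and Pcdh19 than for Pcdh7 or Pcdh17. How the authors' test arrives at a gene's error cannot be seen without values per library.

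**Figure D4:**
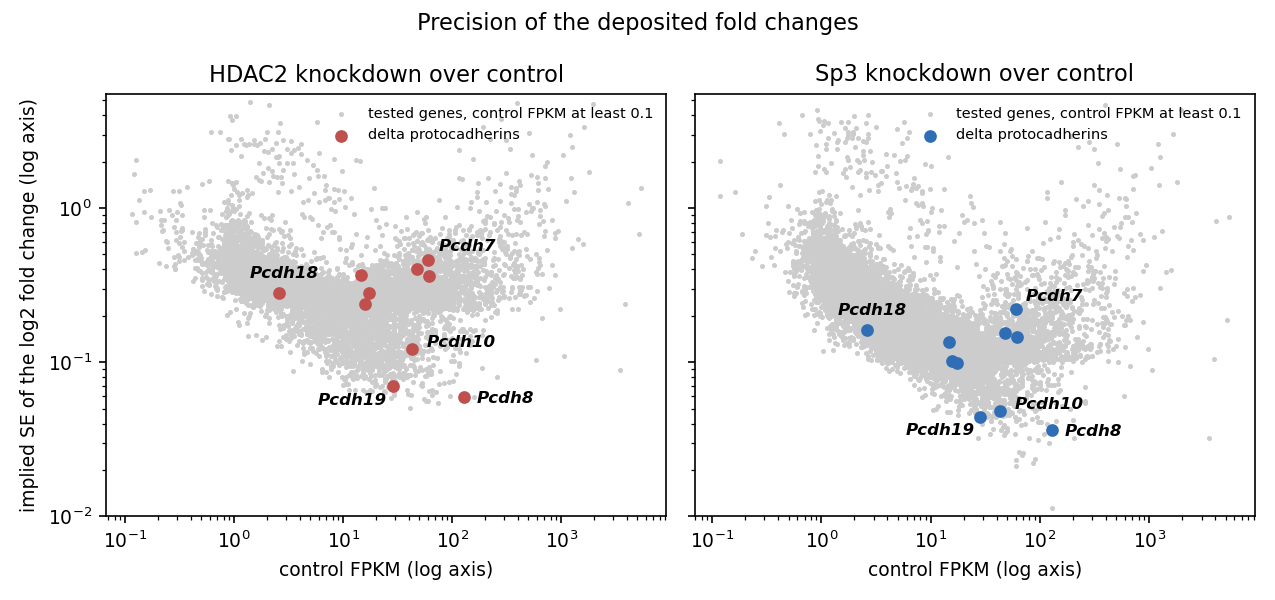
Implied standard error of the log2 fold change (vertical, log axis) against control FPKM (horizontal, log axis) for tested genes of at least 0.1 FPKM in control and for the delta protocadherins, in HDAC2 knockdown and Sp3 knockdown over control. Pcdh8, Pcdh10 and Pcdh19 sit at the lower edge of the cloud and Pcdh7 in its upper part.

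The loci of 2 members are shared with another listed gene. Pcdh10 and 1700027H10Rik have the same coordinates in the tables, chromosome 3 from 45182319 to 45243231 in mm9. 1700027H10Rik measured 12.8 FPKM in HDAC2 knockdown and 4.17 FPKM in control, a log2 fold change of 1.62 ± 0.35 (q = 4.73e-05 in the authors' deposited table), and 8.88 FPKM in Sp3 knockdown (1.09 ± 0.29, q = 0.00132). Both genes of that locus were therefore called higher in both knockdowns, by similar amounts. The gene listed 0.137 kb before that locus, 2610316D01Rik, measured 4.39 FPKM in HDAC2 knockdown, 4.76 FPKM in Sp3 knockdown and 3.48 FPKM in control, and was not called in either comparison. Pcdh17 shares chromosome 14 from 84843369 to 84936867 with 9630013A20Rik, which measured 7.29 FPKM in HDAC2 knockdown, 0.808 FPKM in Sp3 knockdown and 0.653 FPKM in control. The rise of 9630013A20Rik in HDAC2 knockdown was called (q = 1.68e-11 in the authors' deposited table), and the gene was not tested in Sp3 knockdown. The counting's use of strand is not given in the sources used here, so reads of genes that overlap at one locus may not be told apart.

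Promoter sequences were looked at because Sp3 binds the GC box and because the 5 delta2 members were all higher in Sp3 knockdown. The RefSeq windows of GRCm38.p6 that were searched covered 8 of the 10 members. Pcdh1 and Pcdh11x were left out, so the member counts below do not cover them. The 250 bases before the annotated start were searched on both strands for the GC box GGGCGG, the cyclic AMP response element TGACGTCA and the TATA box TATAAA, motifs that did not overlap each other in the windows shown. A GC box was found in 4 of the 8, Pcdh10, Pcdh17, Pcdh18 and Pcdh19, and in 32.7% of all 32851 windows. Those 4 windows had more GC than 79.2% to 89.6% of all windows, and the 32.7% is not matched for GC content. Pcdh8 held no GC box but a TATA box starting 30 bases before the start, a motif that 12.4% of all windows hold. The response element was in none of the 8 members' windows and in 1.55% of all windows. GC content was 63.2% for Pcdh10, 64.8% for Pcdh17, 68.0% for Pcdh18, 69.2% for Pcdh19 and 51.2% for Pcdh8, and the median window had 52.4%. Pcdh9, Pcdh7 and Pcdh20 held no GC box, at 63.6%, 58.4% and 42.4% GC. Of the 7 members with a window that were called higher in Sp3 knockdown as deposited, 4 held a GC box, and Pcdh8, Pcdh9 and Pcdh20 held none. These matches are letters in a window and show no binding. The windows of the 5 delta2 members are given 5′ to 3′ on the gene's strand with the motifs in capitals. They are chr3:45378148-45378397 (plus strand) for Pcdh10, chr14:84443313-84443562 (plus) for Pcdh17, chr3:49757317-49757566 (minus) for Pcdh18, chrX:133688994-133689243 (minus) for Pcdh19 and chr14:79771313-79771562 (minus) for Pcdh8.
Pcdh10: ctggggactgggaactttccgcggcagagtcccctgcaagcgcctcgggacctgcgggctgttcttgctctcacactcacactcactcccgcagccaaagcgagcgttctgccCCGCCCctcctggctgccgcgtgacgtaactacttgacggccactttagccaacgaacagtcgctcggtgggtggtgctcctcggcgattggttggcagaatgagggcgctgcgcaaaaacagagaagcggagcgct
Pcdh17: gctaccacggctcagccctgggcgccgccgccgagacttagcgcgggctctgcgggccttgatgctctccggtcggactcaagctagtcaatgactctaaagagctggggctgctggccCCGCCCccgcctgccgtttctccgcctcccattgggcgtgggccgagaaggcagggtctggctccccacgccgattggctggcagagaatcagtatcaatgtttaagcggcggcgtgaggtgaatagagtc
Pcdh18: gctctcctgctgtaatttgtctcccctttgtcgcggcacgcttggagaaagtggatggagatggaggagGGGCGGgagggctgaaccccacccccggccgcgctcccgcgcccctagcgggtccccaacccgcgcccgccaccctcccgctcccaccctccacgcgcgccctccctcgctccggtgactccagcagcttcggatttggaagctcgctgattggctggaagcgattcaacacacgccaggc
Pcdh19: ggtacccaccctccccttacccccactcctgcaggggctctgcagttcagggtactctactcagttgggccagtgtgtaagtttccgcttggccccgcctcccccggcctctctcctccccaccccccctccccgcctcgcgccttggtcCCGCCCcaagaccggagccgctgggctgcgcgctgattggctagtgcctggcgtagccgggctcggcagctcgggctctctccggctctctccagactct
Pcdh8: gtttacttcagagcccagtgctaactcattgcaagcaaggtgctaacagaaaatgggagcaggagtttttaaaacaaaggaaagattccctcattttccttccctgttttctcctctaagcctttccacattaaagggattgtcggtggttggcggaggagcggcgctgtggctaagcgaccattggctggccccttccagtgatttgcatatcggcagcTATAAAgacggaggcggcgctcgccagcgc

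Genes that act with delta protocadherins were examined as lists. The counts are of genes called higher and lower by the authors' test, with those at an unadjusted p under 0.05 after them. In HDAC2 knockdown the called counts stand beside 24.6% higher and 3.6% lower over all tested genes. In Sp3 knockdown they stand beside 13.2% higher and 26.1% lower. The counts at an unadjusted p stand beside 4380 higher and 661 lower of 13569 tested genes in HDAC2 knockdown. For Sp3 knockdown those numbers are 2151 higher and 4327 lower of 13619. In HDAC2 knockdown, the WAVE regulatory complex had 3 higher and 0 lower of 8 tested (3 and 0), N-cadherin and catenins 2 and 0 of 6 (2 and 0), and the Pcdh8 endocytosis pathway 3 and 0 of 7 (5 and 0). The Pcdh10 synapse elimination pathway had 3 and 0 of 6 (3 and 0), and the catalytic subunits of protein phosphatase 1 had 2 and 0 of 3 (2 and 0). After centring the calls in these 5 lists, in the same order, were 2 and 1, 1 and 0, 0 and 0, 2 and 0, and 0 and 0. In Sp3 knockdown the lists had 2 higher and 3 lower of 9 (2 and 3), 1 and 2 of 7 (1 and 2), 0 and 1 of 7 (0 and 1), 1 and 3 of 6 (1 and 3) and 0 and 1 of 3 (0 and 1). After centring these were 3 and 0, 1 and 1, 0 and 0, 1 and 1, and 0 and 0. All tested genes had, after centring, 10.2% called higher and 7.59% lower in HDAC2 knockdown, and 20.2% and 17.6% in Sp3 knockdown.

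Within the WAVE complex, Wasf3, an actin nucleation promoter, rose in both knockdowns, at 21.8 FPKM in HDAC2 knockdown, 15.7 FPKM in Sp3 knockdown and 7.01 FPKM in control. Its centred values were 1.32 ± 0.25 and 1.30 ± 0.13 in that order. Cyfip1 rose in HDAC2 knockdown (centred 0.67 ± 0.13), and was called lower in Sp3 knockdown as deposited (-0.19 ± 0.070) but not after centring. Cyfip2 was called higher in both tables, with centred values of 0.86 ± 0.48, not called, and 0.61 ± 0.13. Wasf2 was called lower in Sp3 knockdown (-0.55 ± 0.20), a call that centring ended. Abi2 was called lower in Sp3 knockdown as deposited (-0.07 ± 0.026) and higher after centring (0.06), so its direction depends on the scale. In HDAC2 knockdown Abi1 was not called as deposited (-0.0086 ± 0.092) and was called lower after centring (-0.32). No WAVE gene was called lower on both scales in either comparison, and Wasf3 was called higher on both scales in both.

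Of the catenins, which tie cadherins to actin, Jup rose in both knockdowns, at 13.1 FPKM in HDAC2 knockdown, 8.14 FPKM in Sp3 knockdown and 4.18 FPKM in control (centred 1.34 ± 0.25 and 1.09 ± 0.12). Ctnna1 fell to 8.77 FPKM in Sp3 knockdown, against 19.1 FPKM in control (centred -0.99 ± 0.12). Ctnna2 was called higher in HDAC2 knockdown (0.30 ± 0.083) and Ctnnd1 lower in Sp3 knockdown (-0.19 ± 0.046), neither after centring. N-cadherin itself, Cdh2, was not called, at 169 FPKM in HDAC2 knockdown, 99.2 FPKM in Sp3 knockdown and 124 FPKM in control.

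Of the kinases through which Pcdh8 acts, Taok3 (0.55 ± 0.15), Mapk11 (0.67 ± 0.26) and Mapk14 (0.29 ± 0.11) were called higher in HDAC2 knockdown, and Mapk14 lower in Sp3 knockdown (-0.20 ± 0.080), none after centring. Taok2, the kinase that binds Pcdh8, measured 40.9 FPKM in HDAC2 knockdown, 31.1 FPKM in Sp3 knockdown and 30.6 FPKM in control, and was not called. Among genes that act with Pcdh10, Fmr1, an RNA-binding regulator of translation, was higher in HDAC2 knockdown and lower in Sp3 knockdown (centred 0.89 ± 0.27 and -0.31 ± 0.11). Mef2a rose in HDAC2 knockdown (centred 0.73 ± 0.24), and Mef2c rose in Sp3 knockdown (centred 0.85 ± 0.17). Mef2d was called higher in HDAC2 knockdown (0.61 ± 0.24) and lower in Sp3 knockdown (-0.39 ± 0.11), and Mdm2, a ubiquitin ligase gene, was called lower in Sp3 knockdown (-0.38 ± 0.11), none of these after centring. The phosphatase genes Ppp1ca (0.96 ± 0.30) and Ppp1cc (0.89 ± 0.29) were called higher in HDAC2 knockdown, and Ppp1cb lower in Sp3 knockdown (-0.37 ± 0.14), again not after centring.

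Markers of glia were detected beside those of neurons in all 3 groups. In bulk RNA, more cells of a type and more RNA per cell cannot be told apart. The counts as deposited stand beside the same shares over all tested genes as the partner lists. These are 24.6% higher and 3.6% lower in HDAC2 knockdown and 13.2% higher and 26.1% lower in Sp3 knockdown. The counts after centring stand beside 10.2% higher and 7.59% lower in HDAC2 knockdown and 20.2% higher and 17.6% lower in Sp3 knockdown. Oligodendrocyte lineage markers had 14 higher and 0 lower of 17 tested in HDAC2 knockdown (13 and 0 after centring) and 0 higher and 9 lower of 11 in Sp3 knockdown (0 and 9). Their summed level was 481 FPKM in HDAC2 knockdown, 133 FPKM in Sp3 knockdown and 231 FPKM in control. Astrocyte markers had 8 higher and 0 lower of 13 in HDAC2 knockdown (7 and 0 after centring) and 1 higher and 6 lower of 14 in Sp3 knockdown (4 and 6). Their summed level was 2339 FPKM in HDAC2 knockdown, 715 FPKM in Sp3 knockdown and 803 FPKM in control. Both glial lists were thus at their highest sum in HDAC2 knockdown and their lowest in Sp3 knockdown. The same order held for the sum over all genes (617318, 426433 and 479383 FPKM in HDAC2 knockdown, Sp3 knockdown and control). These sums are not centred, so they do not by themselves show a change particular to glial markers. Progenitor and cell cycle markers had 4 higher and 0 lower of 10 in HDAC2 knockdown (2 and 1 after centring) and 0 higher and 9 lower of 10 in Sp3 knockdown (0 and 8). GABAergic neuron markers had 1 higher and 0 lower of 8 in HDAC2 knockdown (1 and 2 after centring) and 7 higher and 0 lower of 9 in Sp3 knockdown (7 and 0). Glutamatergic neuron markers had 1 higher and 1 lower of 10 in HDAC2 knockdown (0 and 1 after centring) and 3 higher and 2 lower of 10 in Sp3 knockdown (3 and 1). By the authors' Cuffdiff test at an unadjusted p under 0.05, the lists with 0 in one direction had 16 higher and 0 lower (oligodendrocyte), 10 and 0 (astrocyte), 4 and 0 (progenitor) and 3 and 2 (GABAergic) in HDAC2 knockdown. In Sp3 knockdown they had 0 higher and 9 lower (oligodendrocyte), 0 and 9 (progenitor) and 7 and 0 (GABAergic). Over all tested genes, that threshold gave 4380 higher and 661 lower of 13569 in HDAC2 knockdown. For Sp3 knockdown it gave 2151 higher and 4327 lower of 13619. The part of these marker changes in the values of the delta protocadherins was not tested.

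Markers are named here by their highest FPKM in any group, and their order can differ between groups. Levels are given for HDAC2 knockdown, Sp3 knockdown and control in that order. The oligodendrocyte lineage markers were Pdgfra (98.8, 20.9 and 43.8 FPKM), Olig1 (93.1, 57.1 and 95.1 FPKM) and Olig2 (85.7, 30.1 and 46.1 FPKM). The astrocyte markers were the glutamate transporter gene Slc1a3 (721, 212 and 173 FPKM), Glul (455, 142 and 143 FPKM) and Aldoc (297, 78.8 and 148 FPKM), while in control Slc1a2 was the highest (290, 138 and 176 FPKM). In HDAC2 knockdown none of these astrocyte genes was called (q = 0.282 for Slc1a3, 0.0653 for Glul, 0.0573 for Aldoc and 0.59 for Slc1a2 in the authors' deposited table). In Sp3 knockdown Aldoc was called lower, and Slc1a3, Glul and Slc1a2 were not called. The progenitor markers were Sox2 (84.1, 17.8 and 32.3 FPKM), Nes (43.5, 15.04 and 22.7 FPKM) and Top2a (35.9, 18.2 and 33.6 FPKM). Sox2 encodes a transcription factor of neural stem cells, which astrocytes also express. The GABAergic markers were Sst (77.1, 145 and 76.0 FPKM), Gad1 (74.3, 54.3 and 43.9 FPKM) and Calb2 (18.6, 42.4 and 19.5 FPKM). The glutamatergic markers were Slc17a7 (275, 219 and 184 FPKM), Camk2a (46.0, 48.6 and 66.7 FPKM) and Neurod6 (30.6, 45.1 and 31.9 FPKM). By the authors' test Olig1, Top2a, Sst, Gad1, Calb2, Slc17a7, Camk2a and Neurod6 were not called in HDAC2 knockdown either. Slc17a7 and Camk2a were also not called in Sp3 knockdown. Microglial markers were under 1 FPKM in every group for 10 of 11 genes, among them P2ry12 and Aif1, with Tmem119 and C1qc listed at 0. Of 13 endothelial, pericyte and fibroblast markers 11 were under 1 FPKM in control, and the highest in any group were Dcn (38.4, 49.9 and 26.6 FPKM), Rgs5 (1.74, 0.877 and 0.416 FPKM) and Pdgfrb (1.43, 0.502 and 1.18 FPKM).

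The clustered protocadherins, 58 listed genes of the same superfamily whose near-identical members can share reads, had 1 called higher and 2 lower in HDAC2 knockdown as deposited, and 0 higher and 10 lower after centring. In Sp3 knockdown they had 8 higher and 7 lower as deposited, and 14 higher and 2 lower after centring. Over all tested genes the deposited shares were 24.6% higher and 3.6% lower in HDAC2 knockdown and 13.2% higher and 26.1% lower in Sp3 knockdown. The centred shares were 10.2% higher and 7.59% lower in HDAC2 knockdown and 20.2% higher and 17.6% lower in Sp3 knockdown. Centred medians of the clustered genes were -0.43 in HDAC2 knockdown and 0.11 in Sp3 knockdown, beside 0.02 and 0.70 for the 10 delta protocadherins. Of the other single-gene protocadherins, Pcdh15, which forms part of the tip link of hair cells, was called higher in HDAC2 knockdown (0.82 ± 0.14), and Cdhr1, a photoreceptor cadherin, in both (2.19 ± 0.28 and 1.02 ± 0.20). Pcdh12 was under 0.2 FPKM in every group.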

How the data were processed

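The 6 libraries were made from total RNA with an Illumina TruSeq kit, per the labels' protocols. TopHat, Bowtie, Cuffdiff and the build mm9 are named without versions in the submitters' processing notes. Annotation and strand use: not given in the sources used here. Per the file headers, the authors deposited per gene the FPKM of each group, its log2 fold change, a statistic (a score with no set bounds), and a p-value with its q-value. The control column agrees between tables for 100% of genes: controls are shared.

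The statistic carries the opposite sign to the fold change and was reversed. The standard error is the log2 fold change divided by it, left missing above 5 (7 genes in each table). Centred values subtract the median log2 fold change of 13370 genes (HDAC2) or 13268 genes (Sp3) of at least 1 FPKM in either group, with a two-sided normal p and Benjamini-Hochberg adjustment over 13481 and 13539 genes. The difference between knockdowns divides by the square root of the sum of both squared standard errors, which counts the shared control error in both. Depth per library is unknown. Genes listed against 0 have no fold (81 and 73). The normal calculations were tested on simulated data with known changes. The simulated noise was normal, had the implied standard errors and was independent between the knockdowns. That test therefore checks the arithmetic only, and not the errors, the normal reference or the effect of the shared control.

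The members, gene lists and alternatives were chosen with earlier results of these data known. Named genes are the 10 members, the targets, list members called in at least 1 comparison, the 3 most abundant markers of each cell type list (1 of them is not reported here), and, for members called in both comparisons, the 2 genes nearest in both centred fold changes. Genes beside these (the loci shared with members, and Abi1, Slc1a2, Taok2, Cdh2, Tmem119, C1qc, Pcdh12, Pcdh15 and Cdhr1) were added after their values were seen. Python 3.11.15, NumPy 2.4.6, pandas 2.3.3, SciPy 1.17.1 and matplotlib 3.10.9 were used.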

Additional observations from a re-analysis of the deposited data

How the results depend on the processing

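No paired analysis was possible because the tables hold 1 value per group, and for the same reason no library could be left out. In HDAC2 knockdown the members called lower numbered 2 with centring, 2 with upper quartile scaling, 0 with a minimum log2 fold change of 0.5 and 0 with standard errors raised to at least the table median, an alternative added after the data were seen, against 1 as reported. The raised errors also took the centred lower count to 0. In Sp3 knockdown the members called higher numbered 5 with the minimum fold change, against 8. With raised errors they numbered 6, or 8 after centring. A t distribution with 2 degrees of freedom left 0 members called in either direction in every comparison and 0 of all genes in each table, with smallest member adjusted p of 0.47 (HDAC2) and 0.295 (Sp3), so every call rests on the authors' normal reference. Between the knockdowns, uncentred fold changes gave 1 member higher and 2 lower, against 0 and 3. Hdac2 in Sp3 knockdown was called as deposited and not centred (-0.22) or with upper quartile scaling (-0.24), and Sp3 in its own knockdown was -1.27 with a pseudocount of 1 FPKM. Direction was kept by every called member under each alternative. Pcdh1 and Pcdh20 in HDAC2 knockdown, not called, changed sign with centring (-0.18 and -0.13). The thresholds 0.01 and 0.1 and the 1 FPKM filter moved no count beyond 1.5 times. Without read counts, the depth behind the low member Pcdh18 is not known.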

Other observations

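Genes whose pair of centred log2 fold changes lay nearest to those of a member called in both comparisons were sought among 12435 genes. For Pcdh10 they were Eml1 and Jup, at distances of 0.032 and 0.041 on the log2 scale. Eml1, a microtubule-associated protein gene, measured 25.98 FPKM in HDAC2 knockdown, 16.3 FPKM in Sp3 knockdown and 8.38 FPKM in control. For Pcdh11x they were Fam81a (0.0044) and Ccnjl (0.019), and Fam81a measured 78.7 FPKM in HDAC2 knockdown, 58.7 FPKM in Sp3 knockdown and 31.4 FPKM in control. For Pcdh8 they were the clustered protocadherin gene Pcdhb21 (0.0042) and the proteasome chaperone gene Psmd5 (0.011). The likeness rests on 3 group values, and the neighbours' own standard errors, up to 0.31, exceed these distances.

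The members on chromosome 14 are far apart with few listed genes between them. Pcdh8 and Pcdh17 are separated by 4.67 Mb with 2 listed genes, Pcdh17 and Pcdh20 by 3.93 Mb with 3, and Pcdh20 and Pcdh9 by 4.54 Mb with 2. On chromosome 3, Pcdh10 and Pcdh18 are separated by 4.30 Mb with 3 listed genes. All 4 members on chromosome 14 were called higher in Sp3 knockdown as deposited. So were Pcdh10 and Pcdh18 on chromosome 3 and Pcdh11x and Pcdh19 on chromosome X. Of the 4 on chromosome 14, Pcdh8 was the member called in HDAC2 knockdown, where it was lower. With raised errors, as deposited, the calls of Pcdh8 in both comparisons and of Pcdh20 in Sp3 knockdown ended.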
